A study of Mus musculus with 3 samples.

Results

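The genes described are the nuclear-encoded subunits of the mitochondrial respiratory chain and ATP synthase, together with a few of their assembly factors. They were chosen by name: all symbols in the count files that begin with Nduf, Cox4 to Cox8, Uqcr or Atp5, without symbols that contain "-ps". This gave 92 members of 19621 genes with counts in an annotated region, with 34679 of 1490782 counts. By symbol, 41 belonged to complex I (Nduf), 8 to complex III (Uqcr), 18 to complex IV (Cox4 to Cox8) and 16 to complex V (Atp5), and 9 were assembly factors (Ndufaf1 to Ndufaf8 and Atp5s). The name rule also let in 4 members annotated as processed pseudogenes: Ndufa11b, Ndufb4c and Ndufs6b, counted in complex I, and Cox6c2, counted in complex IV.

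The study put 3 coronal sections of the mouse main olfactory bulb (C57BL/6J, 12 weeks of age) on dense arrays of small spots that take up polyadenylated RNA. No treatment or genotype was compared. Which animal a section came from is not given in the labels, so the spread over sections may be technical. The deposited tables place spots in 9 regions, here in order from outside to inside: olfactory nerve layer (ONL), glomerular layer (GL), external plexiform layer (EPL), mitral layer (M/T), internal plexiform layer (IPL), the granule cell layer in an external (GCL-E) and an internal part (GCL-I), ependymal cell zone (E) and rostral migratory system (RMS).

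The respiratory chain passes electrons from NADH and succinate to oxygen through membrane complexes and pumps protons across the inner mitochondrial membrane, and ATP synthase (complex V) uses the resulting gradient to make ATP. Complex I takes electrons from NADH, complex II from succinate, complex III hands them to cytochrome c, and complex IV gives them to oxygen. Apart from complex II, each complex holds subunits encoded in the mitochondrial genome beside those encoded in the nucleus, so its assembly draws on both genomes. In the olfactory bulb, synapses are concentrated in the glomeruli and in the external plexiform layer, where mitral and tufted cell dendrites meet granule cell dendrites.

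The sections held 344260, 650393 and 505305 counts of named genes, and the 27 sums of 3 sections and 9 regions ran from 1456 counts (RMS, section 3) to 182699 (EPL, section 2). Levels are in CPM, counts scaled to the same total of named-gene counts for each section, or for each region of a section. Known markers were checked against the region labels: in edgeR's test of a region against the mean of the other 8, all 3 tested genes of olfactory sensory axons and all 4 of ensheathing glia were higher in the ONL, and 5 of 7 genes of mitral and tufted cells in the M/T. The labels were not unique in this: the 3 sensory axon genes were also higher in the GL, and mitral and tufted cell genes in the GL (5 of 7) and the EPL (6 of 7). Of 10 granule cell genes, 4 were higher in the GCL-I, 5 in the E and only 1 in the GCL-E. In the RMS 1 of 7 tested neuroblast genes was higher, so the labels of the GCL-E and the RMS had a weak check. The label of the ependymal cell zone had no such check: of the ependymal markers 4 had counts and 0 were tested, and the ciliary regulator Foxj1 was at 0, 11.5 and 0 CPM there. A spot region holds several cell types, and fewer cells of a type cannot be told apart from less RNA per cell.

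Nuclear genes of this group are known for start regions that hold sites of nuclear respiratory factor 1 (NRF1) and of ETS factors. RefSeq promoter windows of GRCm38.p6, 250 bases before to 50 bases after the start, were at hand for 73 of the 92 members and 27025 genes in all. The NRF1 palindrome GCGCATGCGC, read on both strands, was in windows of 7 of 73 members (9.59%) and of 1.07% of all genes. With at most 1 letter different it was in 22 members (30.1%) against 7.13% of all genes. The ETS core CCGGAAG, or CTTCCGG on the other strand, was in 16 members (21.9%) against 9.93%. Either motif was in 32 members (43.8%) against 15.6% of all genes. A match describes letters in a window and shows no binding. The following stretches show 3 members with each motif, all subunits with at least 279 counts, written 5′ to 3′ on the strand of the gene with the motif in capitals.
Cox6a1, NRF1 palindrome, chr5:115349101-115349130, minus strand: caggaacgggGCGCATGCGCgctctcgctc
Atp5k, NRF1 palindrome, chr5:108434430-108434459, minus strand: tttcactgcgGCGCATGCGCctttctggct
Ndufa11, NRF1 palindrome, chr17:56717692-56717721, plus strand: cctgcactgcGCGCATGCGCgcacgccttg
Uqcr11, ETS core, chr10:80406855-80406914, minus strand: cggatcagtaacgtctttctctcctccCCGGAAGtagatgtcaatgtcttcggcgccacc
Atp5l, ETS core, chr9:44920922-44920981, minus strand: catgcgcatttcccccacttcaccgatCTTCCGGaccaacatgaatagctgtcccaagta
Atp5e, ETS core, chr2:174464171-174464230, minus strand: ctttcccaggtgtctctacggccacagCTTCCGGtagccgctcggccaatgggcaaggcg

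Complex V and complex IV held the members with the most counts. Atp5b, the catalytic beta subunit of the ATP synthase head, had 1971 counts, at 1944, 1117 and 1160 CPM in sections 1, 2 and 3. Atp5a1, its alpha partner, had 1571 counts, at 1711, 861 and 851 CPM. Atp5c1, the gamma subunit that turns inside the head, had 896, at 840, 478 and 596 CPM. All 3 head subunits were highest in section 1.

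In complex IV, Cox4i1, the common isoform of the regulatory subunit 4, had 1503 counts, at 1941, 706 and 757 CPM. Cox6c, a small membrane subunit, had 1486, at 1653, 700 and 929 CPM. Cox7c had 1154, at 837, 765 and 743 CPM. Cox7c thus lay much closer together over the sections than Cox4i1 and Cox6c. In complex III, Uqcrq had 702 counts (898, 351 and 333 CPM), Uqcr11 636 (723, 318 and 363 CPM) and the core protein gene Uqcrc1 467 (636, 223 and 207 CPM).

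In complex I the most counts fell on Ndufa4, with 856 (718, 537 and 524 CPM). Its product is now placed in complex IV, and it is counted here by its symbol. Ndufb2 followed with 514 counts (593, 290 and 245 CPM) and Ndufb4 with 458 (476, 270 and 239 CPM), both accessory subunits of the membrane arm. Counts of these small genes are uncertain where a near-identical copy shares reads: 28 members had such a copy with counts, among them Cox6c (184 counts on Cox6c2, itself a member annotated as a processed pseudogene) and Cox7c (318 on Gm12338). An overlap with a gene on the opposite strand was annotated for 30 members.

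Per kilobase of the longest annotated coding transcript, complex IV stood highest, with a median of 742 CPM per kb over its 12 tested members (range 169 to 1483). The medians were 427 over 15 members of complex V, 413 over 8 of complex III and 195 over 32 of complex I. Cox4i1 (1483 CPM per kb), Cox6c (1482), Cox8a (1303) and Cox7c (1102) led all 67 tested members, followed by Uqcr11 (1052) and Atp5k (1029). At the other end were Atp5g1 (51.2), Ndufab1 (55.6) and Ndufs1 (56.3). For Atp5g1 and Ndufab1 the length divided by was 4715 and 3479 bases, so a shorter transcript in use would raise these values. Whether counts grow with transcript length on these arrays of polyadenylated RNA was not tested. If they do not, the division favours short transcripts. Atp5b (1916 bases) and Atp5a1 (2674 bases) had rank 11 and 24 per kilobase, and Uqcr11 (445 bases) and Atp5k (371 bases) rank 5 and 6. Ranges of the complexes overlapped widely.

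Where a subunit has paralogues for different tissues, the counts fell almost wholly on 1 of them for complex IV. Cox4i1 had 1503 counts and Cox4i2, the form known from lung, 1 count. Cox6a1, known as the liver form, had 737 counts (779, 394 and 428 CPM) and the heart and muscle form Cox6a2 had 2. Cox8a had 961 counts (1185, 481 and 484 CPM) and the muscle form Cox8b 3. Cox6b1 had 436 and the testis form Cox6b2 11. Cox7b had 719 and Cox7b2 1.

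Cox7a2 had 749 counts (924, 377 and 375 CPM), and the muscle form Cox7a1 15. Cox7a2l, a further paralogue by its symbol, had 273. Per kilobase these 3 stood at 847, 20.3 and 169 CPM. Ndufa4 had 856 counts and its paralogue Ndufa4l2, known as a gene induced by low oxygen, 6.

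In the c ring of ATP synthase the counts were divided. Atp5g1, Atp5g2 and Atp5g3, which encode the same mature subunit, had 319, 45 and 454 counts. Their order is uncertain, since Gm10175, identical to Atp5g2 over 645 bases, had 428 counts, while near-identical copies of Atp5g1 had 37 and Atp5g3 had none. Atp5g3 was at 308, 299 and 309 CPM in the 3 sections and Atp5g1 at 418, 149 and 157 CPM. In section 1 Atp5g1 was therefore above Atp5g3, and in sections 2 and 3 below it. The mean over sections was 305 CPM for Atp5g3 and 242 CPM for Atp5g1. Per kilobase Atp5g3 stood at 422 and Atp5g1 at 51.2 CPM, a gap that rests mostly on the lengths divided by, 723 and 4715 bases.

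Summed over all 92 members, the respiratory chain was lower in the outer layers in sections 2 and 3, but not regularly so in section 1. As a percentage of each section's mean over the 9 regions, the ONL stood at 82.7 ± 10.2% (SD, n = 3 sections), the lowest mean of the 9. The GL stood at 94.5 ± 9.03%, the EPL at 92.7 ± 7.93%, the M/T at 104.6 ± 6.98% and the IPL at 103 ± 2.47%. The GCL-E stood at 110 ± 7.63%, the GCL-I at 104 ± 7.99%, the E at 97.5 ± 5.24% and the RMS at 110 ± 36.8%. The ranges of most regions overlapped. The order of the section values was not the same everywhere: the ONL was the lowest region of sections 2 and 3, and the RMS of section 1.

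In CPM the ONL held 34072, 15610 and 16753 in sections 1, 2 and 3, and the GCL-E, the region with the highest mean, 41647, 22725 and 22452. The GCL-E was above the ONL in all 3 sections. The EPL held 36757, 17707 and 19426 CPM and the GCL-I 35746, 22716 and 22280, so that the EPL was above the GCL-I in section 1 and below it in sections 2 and 3. The RMS of section 3 (33654 CPM) rested on 49 counts, with an exact 95% Poisson interval of 24897 to 44492 CPM that covers counting error only.

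**Figure D1:**
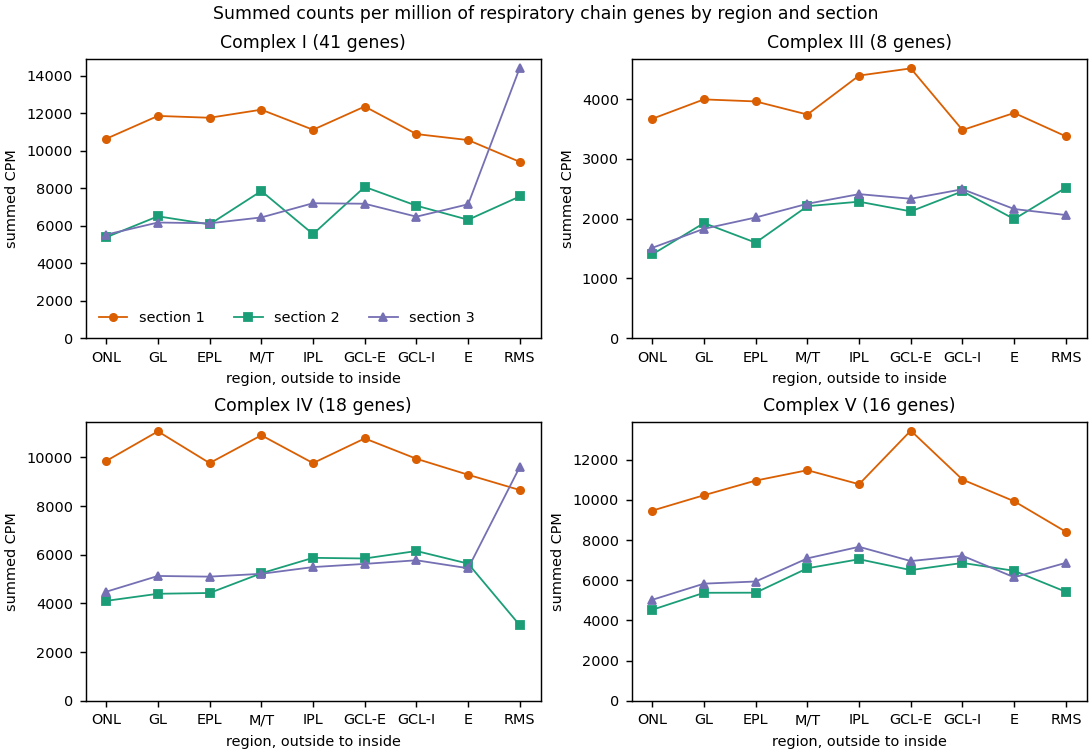
Summed CPM of the members of complexes I, III, IV and V (vertical axis, from 0) in the 9 regions from outside to inside, 1 line per section. In sections 2 and 3 all 4 complexes are lower in the ONL than in the GCL-I, and section 1 lies above the other sections in all regions for complexes III and V and in 8 of 9 for complexes I and IV.

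The complexes kept similar shares of the member counts. Outside the RMS, complex I made up between 26.3% and 35.6% of the member counts of a section's region, complex III between 8.98% and 12.1%, complex IV between 23.7% and 29.4% and complex V between 27.2% and 33.4%. All complexes had their lowest mean in the ONL, at 83.3 ± 10.6% of the section mean for complex I, 78.0 ± 14.5% for complex III, 86.2 ± 10.9% for complex IV and 80.4 ± 7.49% for complex V. For complex IV this did not hold without members that have a near-identical gene: the ONL and the EPL then both stood at 88.4%, and in section 1 the ONL was the highest region (6698 CPM). The assembly factors held 413 counts in all, too few for an order of regions.

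Per area the picture differed, because regions differ in how many counts a spot gives. Per 100 spots, the M/T held 1.72, 2.88 and 2.09 member counts in sections 1, 2 and 3, and the GCL-E 2.18, 2.51 and 1.98. The ONL held 0.678, 1.35 and 1.17. The M/T and GCL-E were thus above the ONL in all 3 sections, without overlap. Counts of all genes per 100 spots went the same way, with 91.0 ± 43.3 (SD, n = 3) in the M/T and 58.7 ± 34.6 in the ONL.

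Single members were tested next. Of the 92, 67 had enough counts for edgeR's quasi-likelihood test (at least 183 counts each). The other 25 had 1220 counts between them (1 to 164 each) and included all 9 assembly factors and most tissue-specific paralogues. At an adjusted p (Benjamini-Hochberg over 1996 genes) under 0.05, 4 of 67 members (5.97%) differed between any regions, where 23.3% of all tested genes did. The tested members had a median of 370 counts and all tested genes of 287. An unadjusted p under 0.05 was reached by 8 of 67 members and by 33.7% of all tested genes. The 4 members were Cox5b (adjusted p = 0.0237), Cox5a (0.0241), Atp5b (0.0332) and Ndufc1 (0.0388), and DESeq2 called 1, Atp5b.

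For single regions against the mean of the other 8, edgeR called 0 members in the ONL, where it called 6.61% of all tested genes. It also called 0 in the GL (10.6% of all genes), the IPL (0%), the GCL-E (0.551%), the E (2.91%) and the RMS (0.902%). At an unadjusted p under 0.05 there were 4 of 67 members in the ONL, 6 in the GL, 6 in the IPL, 5 in the GCL-E, 4 in the E and 9 in the RMS. Of all tested genes, 16.6%, 22.3%, 7.41%, 10.1%, 15.8% and 14.1% reached this in the same regions. DESeq2 called 0 in these regions except the RMS, where it called 1, Atp5b. In the EPL edgeR called 2 members, both higher (10.3% of all genes were called higher and 11.7% in either direction). In the M/T it called 1, higher (1.7% of all genes higher, 2% in either direction), and in the GCL-I 1, higher (2.66% higher, 3.56% in either direction).

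The median log2 fold change of the members stayed close to that of all tested genes in most regions. It was 0.11 against 0.09 in the EPL, 0.05 against 0.04 in the M/T, 0.07 against 0.08 in the IPL and 0.09 against 0.12 in the GL. It was 0.15 against 0.10 in the GCL-I and 0.15 against 0.04 in the GCL-E. In the ONL it was -0.06 against 0.08, and 26 of 67 members were positive. In the E it was 0.03 against 0.11, and in the RMS -0.45 against -0.41. The low values of the RMS enter the mean that every other region is set against. Without the RMS the medians of members and all tested genes were 0.09 against 0.04 in the EPL. They were 0.03 against 0.002 in the M/T and 0.09 against 0.04 in the GCL-I. With library sizes in place of TMM scaling, the median of all genes moved from 0.09 to -0.10 in the EPL and from 0.08 to -0.07 in the ONL, and that of the members with it, to -0.07 and -0.19.

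**Figure D2:**
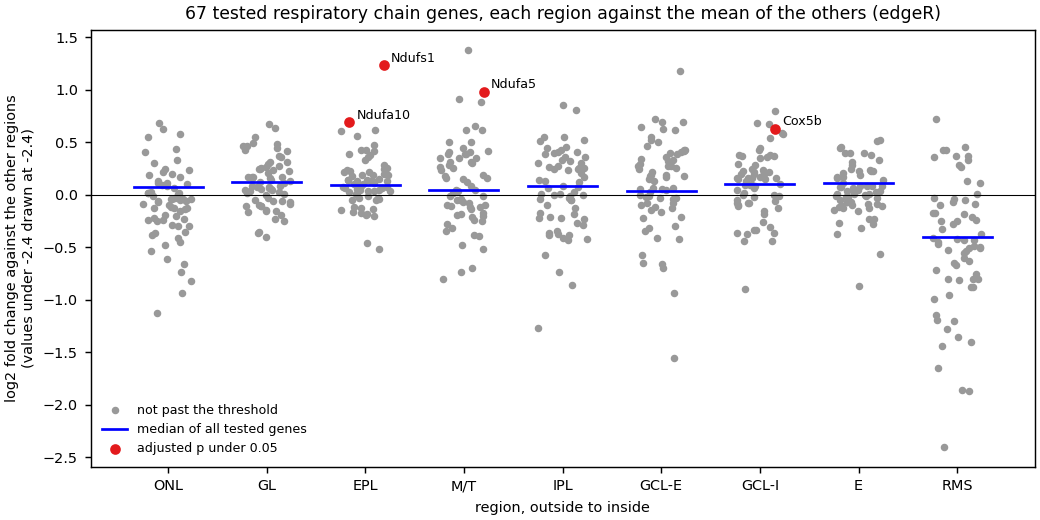
Log2 fold change of the 67 tested members (points, spread sideways at random) in each of the 9 regions against the mean of the others, with the median of all tested genes as a blue line and members past the threshold in red. The members lie around the blue line in each region, and 4 points pass: Ndufs1 and Ndufa10 in the EPL, Ndufa5 in the M/T and Cox5b in the GCL-I.

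Both members called in the EPL belong to complex I. Ndufs1 (chromosome 1, 63143596 to 63176833, minus strand, mm10) encodes the large iron-sulfur subunit of the arm that receives electrons from NADH. It held 234, 213 and 136 CPM in the EPL in sections 1, 2 and 3, against a mean of 134 ± 6.43 CPM in the remaining regions. Its mean of 194 ± 51.8 CPM in the EPL was 1.45 times that level, and higher in 3 of 3 sections, yet the M/T was higher still in sections 2 and 3 (63.4, 283 and 281 CPM). The fitted log2 fold change was 1.23 (SE 0.39, adjusted p = 0.0198). It is larger than the ratio of means because the RMS held 0 counts of Ndufs1, and without the RMS the adjusted p was 0.233. Ndufs1 overlaps 2 genes on the opposite strand.

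Ndufa10 (chromosome 1, 92439010 to 92473860, minus strand) encodes an accessory subunit of the membrane arm. It held 399, 219 and 303 CPM in the EPL, and 307 ± 90.1 on average against 213 ± 31.4 in the other regions. The EPL was above the ONL and the GL in each section, in section 2 by little (198 and 205 CPM), and in that section it was below the GCL-E (236 CPM). The fitted log2 fold change was 0.69 (SE 0.22, adjusted p = 0.0212), and without sections 1, 2 and 3 in turn the adjusted p was 0.144, 0.0668 and 0.184. With library sizes in place of TMM the adjusted p was 0.138 for Ndufa10 and 0.0871 for Ndufs1.

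Ndufa5 (chromosome 6, 24518666 to 24528013, minus strand) encodes an accessory subunit of the arm of complex I that reaches into the matrix. It held 1078, 311 and 344 CPM in the M/T, on 17, 11 and 11 counts, and 274 ± 133 CPM in the other regions. The M/T exceeded that mean in 3 of 3 sections, and section 1 lay far above the others. The log2 fold change was 0.98 (SE 0.30, adjusted p = 0.0481). Against the GCL-I, where Ndufa5 held 370, 148 and 128 CPM, it was 1.26 (SE 0.37, adjusted p = 0.0361), the 1 member called in this pair, where 1.7% of all tested genes were higher and 2.35% were called in either direction. Without sections 1, 2 and 3 in turn the adjusted p was 0.348, 0.214 and 0.101 against the other regions and 0.326, 0.189 and 0.192 against the GCL-I.

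Cox5b (chromosome 1, 36691449 to 36693681, plus strand) encodes a zinc-binding subunit of complex IV. It held 1109, 594 and 405 CPM in the GCL-I, 921, 519 and 666 in the GCL-E and 886, 481 and 419 in the E. In the EPL it held 660, 307 and 415 CPM and in the GL 856, 278 and 234. Each of these 3 inner regions exceeded the average of all others in 3 of 3 sections, and the GL in 1. The log2 fold change in the GCL-I was 0.62 (SE 0.20, adjusted p = 0.0479), and without the RMS, which held 430, 0 and 0 CPM, the adjusted p was 0.115. Leaving out section 2 gave 0.582 and leaving out section 3 gave 0.0768. A near-identical gene, Gm11273, had 216 counts beside the 687 of Cox5b, so the split between them is uncertain.

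Cox5a (chromosome 9, 57521274 to 57532426, plus strand) encodes the partner subunit of complex IV. It passed the test over all regions and in no single one. In the ONL it held 129, 84.9 and 18.2 CPM, on 2, 6 and 1 counts, and in the EPL 179, 76.6 and 95.8. In the GCL-I it held 253, 214 and 277 CPM and in the E 238, 218 and 201. The GCL-I and E were above the ONL and EPL in every section, without overlap of their ranges. Against the other regions the ONL had a log2 fold change of -1.13 (SE 0.49, adjusted p = 0.176). Over all regions, leaving out section 2 gave an adjusted p of 0.314 and leaving out section 3 one of 0.285.

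Atp5b (chromosome 10, 128083273 to 128090391, plus strand) had the most counts of all members. It held 1739, 708 and 819 CPM in the ONL, 1570, 1019 and 1066 in the GL and 1926, 1040 and 1022 in the EPL. It held 1903, 1472 and 1437 CPM in the M/T and 2238, 1370 and 1857 in the IPL. Within each section the GL was below the M/T and the IPL. The mean was 1089 ± 566 CPM in the ONL and 1822 ± 435 in the IPL, with log2 fold changes of -0.37 (SE 0.18, adjusted p = 0.264) and 0.43 (SE 0.17, adjusted p = 0.503). Its largest fitted change was in the RMS, at -0.88 (SE 0.32, adjusted p = 0.171), on 20, 3 and 3 counts, and this was the region in which DESeq2 called it. The median of all tested genes there was -0.41, and it was -0.29 in DESeq2 and -0.02 with library sizes alone. The part of scaling in the change of Atp5b was not tested. The test over all regions lost its call without the RMS (adjusted p = 0.0671), without section 2 (0.669) and without section 3 (0.277).

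Ndufc1 (chromosome 3, 51404677 to 51408988, minus strand), a small membrane subunit of complex I, was lowest in the E, at 148, 149 and 168 CPM, and in the GL, at 204, 159 and 166 CPM. In the GCL-E it held 461, 377 and 375 CPM. The GCL-E was above both regions in every section, on 5, 8 and 9 counts. In the EPL 1 section stood apart, with 605 CPM in section 1 against 186 and 215, and without section 1 the adjusted p over all regions was 0.632. Leaving out section 2 gave 0.169 and leaving out section 3 gave 0.0666.

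**Figure D3:**
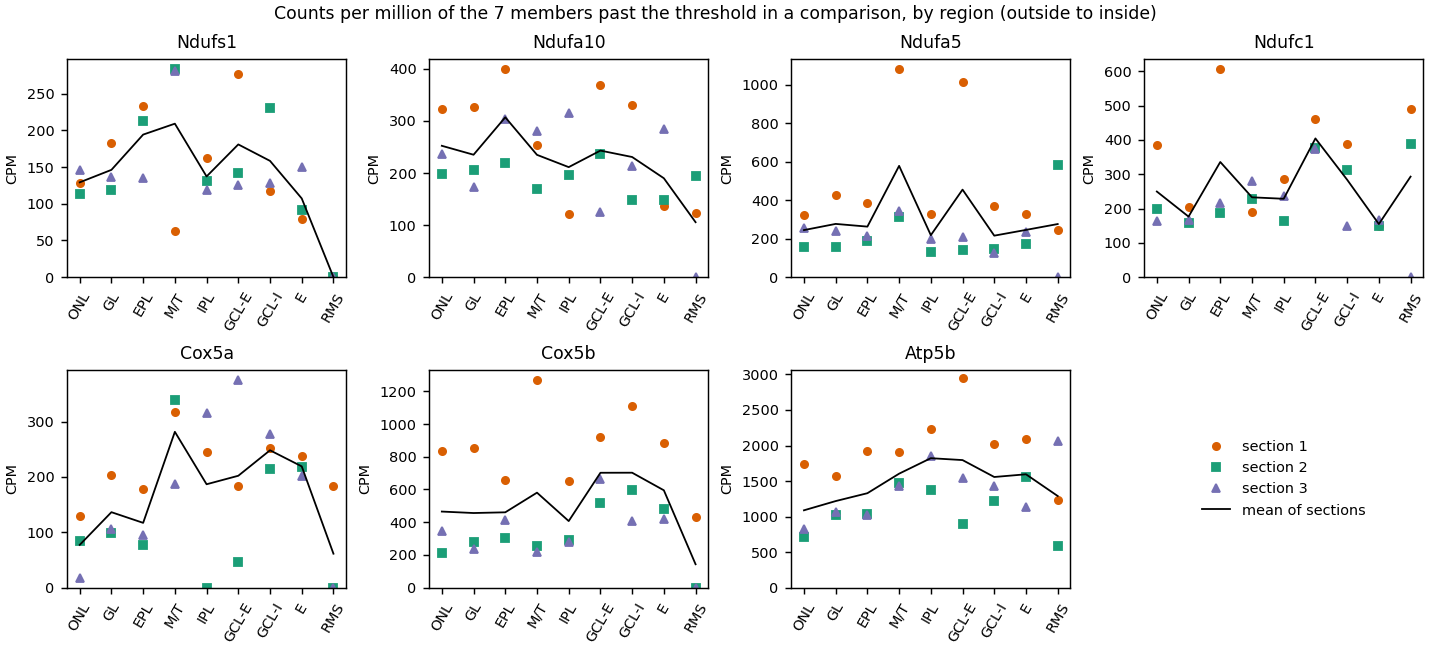
CPM (vertical axes, from 0) of the 7 members past the threshold in a comparison, in the 9 regions from outside to inside, with 1 symbol per section and a line through the section means. Cox5a, Cox5b and Atp5b have lower means in the ONL, GL and EPL than in the GCL-I, and Ndufa5 has its highest mean in the M/T through section 1.

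Among neighbouring regions edgeR called 0 members between ONL and GL (1.9% of all tested genes), 0 between GL and EPL (1.6%) and 0 between EPL and M/T (3.26%). Between the EPL and the GCL-I, the pair in which 14.4% of all tested genes differed, it also called 0 of 67 members. At an unadjusted p under 0.05 there were 5, 1, 3 and 6 members in these pairs, and 9.77%, 9.67%, 13.2% and 24.7% of all tested genes. DESeq2 called 0 members in each pair. The median log2 fold change of the members between EPL and GCL-I was -0.01, as for all tested genes (-0.01). With library sizes alone these medians were -0.19 and -0.20, and 2 members were called, where the share of all genes is not given here.

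Genes of the same pathway outside the name rule gave few calls too. Of complex II, the succinate dehydrogenase that has no mitochondrially encoded subunit, Sdha and Sdhb were tested and 0 passed in any comparison, with adjusted p = 0.745 and 0.755 over all regions, 0 at an unadjusted p under 0.05 there and 0 by DESeq2. Of 11 carriers and porins, which move ADP, ATP, phosphate and other metabolites across the mitochondrial membranes, 8 were tested and 0 passed over all regions (0 at an unadjusted p under 0.05, 0 by DESeq2). The regulators of mitochondrial biogenesis were too thinly counted, with 1 of 14 tested and 0 called. Of 37 further assembly factors 3 were tested and 0 passed over all regions, by edgeR, by DESeq2 or at an unadjusted p under 0.05.

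Cytochrome c and the ATP synthase inhibitor passed in some comparisons. Cycs, the carrier between complexes III and IV, held 64.4, 127 and 91.0 CPM in the ONL and 204, 265 and 280 in the neighbouring GL, without overlap. It was lower in the ONL than in the other regions, with a log2 fold change of -1.19 (SE 0.37, adjusted p = 0.0254), and DESeq2 did not call it. Over all regions Cycs did not pass (adjusted p = 0.108). Atpif1, whose product holds back ATP breakdown by ATP synthase, held 481, 224 and 192 CPM in the EPL and 136, 132 and 128 in the GCL-I, without overlap. The log2 fold change between these regions was 1.23 (SE 0.36, adjusted p = 0.00704), and DESeq2 called it as well. By edgeR alone Atpif1 also passed over all regions (adjusted p = 0.0401) and in the EPL against the other regions (log2 fold change 0.68, SE 0.23, adjusted p = 0.0260).

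Genes resembling the mitochondrially encoded transcripts lay otherwise over the layers. The files list 11 nuclear genes that are at least 95% identical to a mitochondrial transcript, such as Gm10925 (100% over 678 bases of mt-Atp6), and whether their counts came from mitochondrial RNA was not tested. They summed to 25490, 88085 and 97734 CPM in the EPL and to 13349, 34148 and 37979 CPM in the GCL-I. The EPL was above the GCL-I in all 3 sections, at 163 ± 21.6% of the section mean against 69.6 ± 3.69%. All 9 that were tested were higher in the EPL than in the GCL-I, and in the ONL, GL and EPL than in the other regions.

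For 1 count of the 92 nuclear members, the EPL held 0.693, 4.97 and 5.03 counts of mitochondria-like genes in sections 1, 2 and 3, and the GCL-I 0.373, 1.503 and 1.70. The ratio was thus higher in the EPL in each section. Genes of several cell types differed between these regions too. Of astrocyte genes, 9 of 10 tested were higher in the EPL than in the GCL-I, as were 7 of 7 tested genes of mitral and tufted cells. In the EPL against the M/T, 9 of 9 mitochondria-like and 9 of 10 astrocyte genes were higher, but 0 of 7 of mitral and tufted cells. In the M/T against the GCL-I, 6 of 7 mitral and tufted cell genes were higher, and 0 mitochondria-like or astrocyte genes. Astrocyte genes were not alone in this. Of 4 tested blood genes, 3 were higher in the EPL than in the GCL-I and 2 were higher than in the M/T. Of 2 tested genes of meningeal fibroblasts, 2 and 1 were. Between M/T and GCL-I, 0 genes of these 2 lists were called. Of 10 tested granule cell genes, 8 were lower in the EPL than in the GCL-I. The part of these cell types in the ratio was not tested.

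**Figure D4:**
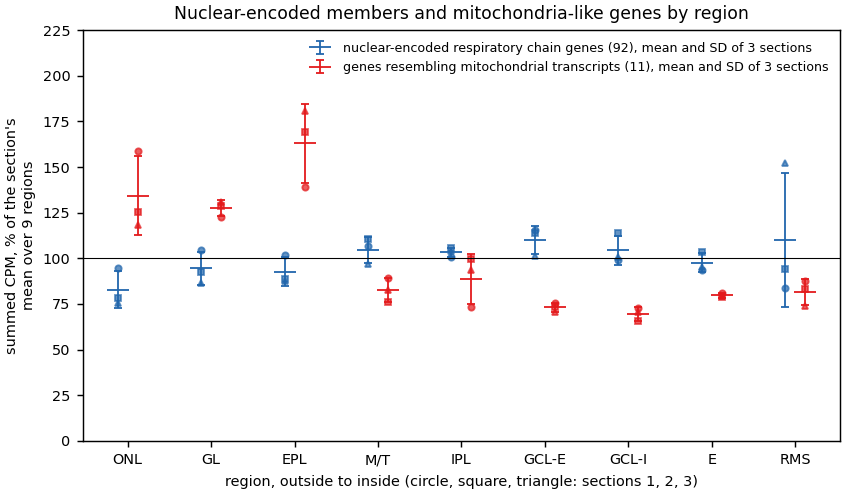
Summed CPM of the 92 members (blue) and of the 11 genes that resemble mitochondrial transcripts (red) as a percentage of each section's mean over the 9 regions, with the mean and SD of 3 sections and 1 symbol per section. The means of the members lie between 82.7% and 110%, with a wide spread in the RMS, while the mitochondria-like genes reach 163% in the EPL and fall to 69.6% in the GCL-I.

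The widest difference in member levels was between whole sections. Members made up 3.58% of the counts of section 1 and 1.91% and 2.002% of sections 2 and 3, or 35751, 19118 and 20021 CPM. Section 1 was thus 1.83 times the mean of the other sections, which lay close together. It was above both other sections in 8 of 9 regions, with ratios from 1.15 to 2.11, and the exception was the RMS with its 49 counts in section 3. By complex the ratio was 1.75 for complex I, 1.97 for complex III, 1.97 for complex IV and 1.76 for complex V. With 1 section on 1 side there is no test of this difference. The deposited names of sections 2 and 3 share a code that the name of section 1 lacks. The labels do not explain it, and whatever it marks cannot be told apart from the difference between these sections.

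The ratio differed between parts of the pathway. Within complex I, the 5 members of the module that binds ubiquinone stood at 1801, 780 and 785 CPM in sections 1, 2 and 3, a ratio of 2.30, and the 8 of the module that oxidises NADH at 2179, 1318 and 1397, a ratio of 1.60. Within ATP synthase, the 5 head subunits had a ratio of 1.83 and the 4 of the peripheral stalk 1.54. Complex II lay at 659, 678 and 664 CPM, a ratio of 0.983, so its level was almost the same in the 3 sections. Carriers and porins had a ratio of 1.37, the further assembly factors 1.54 and the regulators of biogenesis 0.856.

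Among members with at least 100 counts, 66 of 71 were higher in section 1 than in the mean of the others, and 49 (69.0%) at least 1.5-fold higher, where 27.9% of 3591 genes with as many counts were. None of the 71 was at least 1.5-fold lower, where 30.5% of those genes were. The median ratio was 1.78 for the members and 1.02 for all of these genes. Between sections 2 and 3, 0 members were at least 1.5-fold higher in section 2 (1.98% of all genes) and 1 was as much lower (2.28%).

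Among these 71 members, ratios ran from 0.701 to 3.87. The 21 members with fewer counts are left out here. Cox6c2 was highest, at 291, 60.5 and 89.7 CPM. It is a processed pseudogene 97.0% identical to Cox6c over 231 bases, so its counts may hold reads of Cox6c. Ndufs7, an iron-sulfur subunit of complex I, stood at 567, 164 and 177 CPM (ratio 3.32) and the complex III core gene Uqcrc1 at 636, 223 and 207 (2.96). Atp5d, the delta subunit of the head, had a ratio of 2.80 and Cox4i1 of 2.65. In all of these, section 1 was more than 1.5 times each of the others.

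At the low end, 5 of the 71 were below 1: Ndufb6 (81.3, 136 and 95.6 CPM, ratio 0.701), Atp5j (131, 152 and 165 CPM, 0.824), Ndufs1 (142, 161 and 145 CPM, 0.928), Uqcrfs1 (0.971) and Atp5e (0.972). Cox7b (514, 465 and 482 CPM, ratio 1.09), Cox7c (1.11) and Atp5g3 (1.01) were near 1 as well, in the same complexes as members with ratios above 2. Subunits of 1 complex therefore did not keep 1 proportion between sections. Over the 71 members the log2 ratio had no relation to the logarithm of transcript length (Pearson r = 0.00918, Spearman rho = 0.0151, as a description over genes that share the same libraries).

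**Figure D5:**
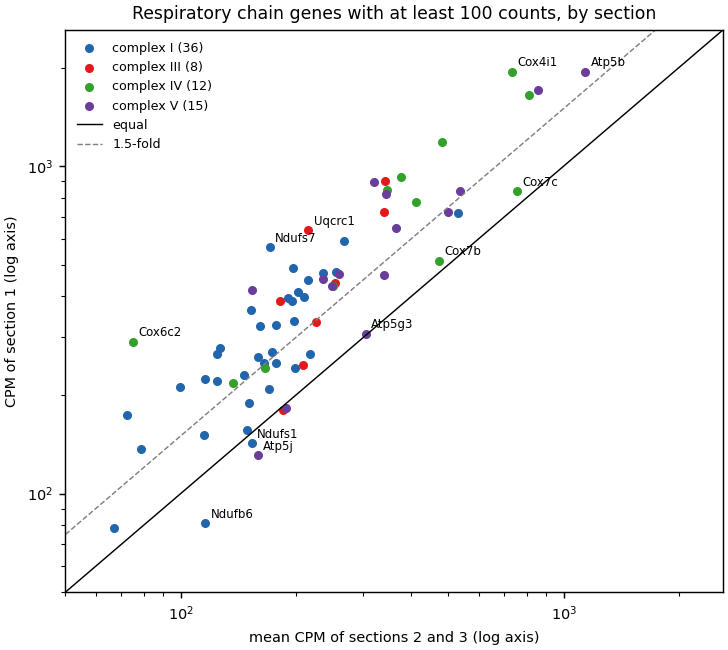
CPM of the 71 members with at least 100 counts in section 1 (vertical, log axis) against the mean of sections 2 and 3 (horizontal, log axis), coloured by complex, with lines for equal levels and for 1.5-fold. Most points, 49 of 71, lie on or above the 1.5-fold line, and 5 lie below the line of equality.

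Other genes moved between the same sections. The mitochondria-like genes went the opposite way, at 1.86%, 6.29% and 6.603% of counts, and section 1 was below both other sections in all 9 regions. Markers of myelinating oligodendrocytes summed to 3588, 1576 and 1708 CPM (ratio 2.19), the highest ratio of the cell type lists. Those of astrocytes summed to 6656, 12654 and 12065 CPM (ratio 0.539), the lowest. Periglomerular cells had 1.73 and microglia 1.71. The sections also differed in region make-up: the E held 88079, 87316 and 59695 of 344260, 650393 and 505305 counts. Oligodendrocyte genes were called higher in the E (2 of 4 tested) and astrocyte genes in the EPL (9 of 10). The part of region make-up in these ratios was not tested. The part of these differences in the member ratio was not tested. With mitochondria-like and miRNA genes left out of the total, the member ratio was 1.73, and without members that have a near-identical gene it was 1.89.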

How the data were processed

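Spatial transcriptomics libraries of polyadenylated RNA from 3 sections were analysed. The authors deposited raw counts per spot and gene, as whole numbers, and a table of spots with pixel positions and regions. The submitters' processing notes name the mm10 build. The aligner, the counter, the annotation, how regions were drawn and whether counts are of unique molecules are not given in the sources used here.

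Entries were joined to regions by pixel position (100% matched) and counts summed into 27 sums. Counts without a gene name (0.0325%, 0.0764% and 0.0801% of sections 1, 2 and 3) were left out. All 92 members and 99.8% of all symbols were found in GENCODE M21 (mm10).

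The sums were fitted with edgeR 4.0.16 under R 4.3.3 (quasi-likelihood, terms for region and section, TMM). Of all genes, 1996 passed filterByExpr at a minimum count of 10. Each comparison was adjusted by Benjamini-Hochberg, with a threshold of 0.05. Each region was set against the unweighted mean of the other 8, and 5 pairs directly. Sums of 1 section come from the same tissue, so section was a block. After region means were subtracted, the correlation averaged 0.405 for sums of the same section (108 pairs, lowest 0.0583) and -0.210 for sums of different sections. Alternatives were RLE scaling, library sizes alone, no filter, no block, DESeq2 1.42.0, each section or the RMS left out, and a join by spot name. For the sums they were a total without mitochondria-like and miRNA genes, members without a near-identical gene and Ndufa4 counted in complex IV.

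A near-identical gene matched at least 95% over at least 100 bases and at least 50% of the shorter transcript. Named were members past the threshold (at most 8 a comparison, at least 30 counts), the 3 with the most counts of each complex, all tissue isoforms, and genes of other lists that passed. Members named for their section ratio, their level per kilobase or a promoter motif were chosen after their values were seen, as were the 1.5-fold line and the modules of complexes I and V. Members and lists were chosen with earlier results of these data known. Values were computed with Python 3.11.15, numpy 2.4.6, pandas 2.3.3 and scipy 1.17.1, and figures drawn with matplotlib 3.10.9.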

Additional observations from a re-analysis of the deposited data

Results flagged for a closer look

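Members also had counts in data outside the comparisons. In spots placed in none of the 9 regions, they stood at 17546.9 CPM in section 2 (100 of 5699 counts, exact 95% Poisson interval 14277 to 21342) and at 18340.6 CPM in section 3 (63 of 3435 counts, 14093 to 23466), above the level of 3 counts (526 and 873 CPM). Section 1 had 42 such counts, of which 0 were of members, where the level of 3 counts is 71429 CPM and the exact 95% Poisson upper limit 87831 CPM. The 7 symbols with "-ps", left out by the name rule, summed to 496.718, 249.08 and 257.27 CPM in sections 1, 2 and 3, so that section 1 was again the highest.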

How the results depend on the processing

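Calls on members changed with several settings. The replicate block (section as a term) mattered to each of them: without the replicate block 0 members passed over all regions, and 0 in the EPL, the M/T, the GCL-I and the pair M/T and GCL-I. Without the filter on low counts 92 members were tested in place of 67. The count was then 8 over all regions, 7 in the GL, 10 in the EPL, 2 in the E, 1 in the RMS, and 0 in the M/T, the GCL-I and the pair M/T and GCL-I. DESeq2 called 1 over all regions, 0 in the EPL, 0 in the GCL-I and 1 in the RMS. Without the RMS the count was 2 over all regions, 1 in the ONL, 1 in the EPL, 0 in the GCL-I, 1 in the E and 1 between EPL and GCL-I. With library sizes alone it was 1 in the ONL, 1 in the EPL, 1 in the E, 2 between EPL and M/T and 2 between EPL and GCL-I. With RLE scaling it was 0 in the GCL-I, 1 in the E and 1 between EPL and GCL-I. Joined by spot name it was 0 in the M/T, the GCL-I and the pair M/T and GCL-I. With each section left out in turn it ran from 0 to 4 over all regions, 0 to 1 in the ONL and the GL, 0 to 2 in the EPL, 0 to 0 in the M/T, 0 to 1 in the GCL-I, 0 to 1 between EPL and GCL-I and 0 to 0 between M/T and GCL-I. The 9 calls of single members were all lost without the block and without section 2, and 8 of 9 without section 3. DESeq2 lost 6, the fits without section 1 and without a filter 5 each, those without the RMS and with the join by spot name 4 each, library sizes alone 2 and RLE scaling 1. The cause was not tested. The share of all genes called in each alternative fit is not given here. These counts therefore do not show whether members were called more or less often than other genes.

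For all members summed, 1 value moved by more than its spread, that of the IPL, from 103 to 106.346% of the section mean without members near-identical to another gene. For single complexes another 10 values moved, among them complex III in the RMS, from 102 to 76.8%, and complex IV in the IPL, from 104 to 118%, both without near-identical members. Depth limits the order of regions most in the RMS, with 493, 97 and 49 member counts, and for the 25 members that were not tested.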
